A study of Homo sapiens with 30 samples.

Results

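Wild-type HCT116 cells treated for 16 hours with 10 nM actinomycin D were compared with untreated wild-type cells. The members were the 3 arrays titled as wild type with 10 nM actinomycin D and the 3 titled as wild type untreated, 6 of the 30 arrays in the series, taken by their titles. HCT116 is an established line from a colon adenocarcinoma. The wild-type cells (WT) have p53, and the isogenic p53KO cells, used below for comparison, lack it. The other groups compared were WT cells with 1 nM or 100 nM actinomycin D for 16 hours, with 3 arrays each. p53KO cells untreated or with 10 nM, also with 3 arrays each, were compared too. The series also held p53KO cells with 1 nM or 100 nM actinomycin D for 16 hours. It further held WT and p53KO cells with 4 uM nutlin for 16 hours. These groups had 3 arrays each as well and entered the fit, which held all 30 arrays. All cells were grown in the same serum-supplemented medium and seeded overnight before treatment. The labels name no vehicle for the untreated cells and do not tell separate cultures from repeats of one culture, so the p-values reflect array-to-array spread alone, and that spread may be technical. Each genotype is 1 line.

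Actinomycin D inserts into DNA at guanine-cytosine steps and stops elongating RNA polymerases. At low doses it acts mainly on RNA polymerase I, which transcribes ribosomal DNA, and ribosomal proteins left unassembled then bind MDM2, the inhibitor of p53, so that p53 accumulates. p53 switches on genes for arrest, repair and death, and through p21 it leaves the E2F and DREAM repressor complexes on the promoters of replication and mitosis genes.

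Expression was read on Illumina bead arrays as a bead intensity per probe, and is given here as a log2 level after background correction and quantile normalisation, which set every array to the same distribution. A change is the mean log2 level at 10 nM minus that in untreated cells, with the moderated standard error (SE) of limma, and called means an adjusted p below 0.05 (limma, Benjamini-Hochberg over the 11526 detected features). Levels are relative to the other RNA of the sample, so fewer cells making an RNA and less RNA per cell cannot be told apart. The raw 75th percentile was 261 to 284 intensity units on the 10 nM arrays and 240 to 273 on the untreated arrays, and 12406 to 12629 and 12178 to 12547 probes were detected. The first untreated array stood apart: it correlated with the other untreated arrays at 0.970 and 0.974, while those correlated with each other at 0.993 and the 10 nM arrays among themselves at 0.991 to 0.994. On it 534 features lay more than 1 log2 unit from the mean of the others in its group, against 19 to 66 on the 10 nM arrays. The 10 nM arrays lay on slides 1 and 5 and the untreated arrays on slides 2 and 4, and no slide held both groups, so slide could enter only as a random block. Of 12 colon epithelium markers 7 were tested, EPCAM, KRT8, KRT18, KRT19 and CDX2 among them, and the summed linear level of the 7 was 35500 to 40000 at 10 nM and 27200 to 32300 in untreated cells. Of 22 markers of other cell types, 7 were tested, with a summed level of 1020 to 1250 at 10 nM and 1310 to 1940 untreated. CDH1, another colon marker, was detected on 1 of the 10 nM arrays and on all 3 untreated arrays, and LGALS4 on 1 and 0. The colon markers KRT20, CDX1, CEACAM5, VIL1 and MUC2 were not among the tested features. Neither were PTPRC, ALB and PECAM1, markers of leukocytes, hepatocytes and endothelium. Of the tested markers of other cell types, CD68, COL1A1, ACTA2, MBP and HBA1 were detected on all 3 arrays of both groups. APOA1 was detected on 3 arrays at 10 nM and 1 untreated, and CD14 on 0 of either group.

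At 10 nM, 1793 features were higher (15.6% of those tested) and 1770 lower (15.4%), 30.9% in all. At least 2-fold changes were found in 385 features that were higher (3.34%) and 661 that were lower (5.73%), and at least 4-fold changes in 33 (0.286%) and 60 (0.521%). The median change of all features was 0.03. Without the first untreated array, 1626 were higher (14.1%) and 1736 lower (15.1%), 29.2% in all. The calls of both fits shared 2900 features, all with the same sign, which is 81.4% of the calls with all arrays and 86.3% of those without the first. With slide as a random block (correlation 0.501 between arrays of a slide), 978 were higher (8.49%) and 981 lower (8.51%), 17.0% in all. In 2859 features (24.8%) every 10 nM array was above every untreated array, and in 2600 (22.6%) every one was below.

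The p53 target TP53I3, the epithelial genes GALNT5 and SERPINB5 and the zinc exporter SLC30A1 were among the 12 with the highest change. TP53I3, a p53-induced quinone oxidoreductase, had log2 levels of 11.57, 12.26 and 12.11 at 10 nM and 9.18, 7.68 and 7.94 in untreated cells, a change of 3.71 ± 0.85 (SE, adjusted p = 0.0017), and its second probe changed by 2.55. Its lowest 10 nM array was above its highest untreated array, which was the first. GALNT5, an enzyme that starts O-linked glycans, had 8.27, 8.45 and 8.53 at 10 nM and 5.72, 5.09 and 4.97 untreated (3.16 ± 0.25, adjusted p = 7.7e-09). SERPINB5, the serpin maspin, had 11.68, 11.84 and 11.73 at 10 nM and 9.42, 8.22 and 8.68 untreated (2.98 ± 0.39). In both genes the 10 nM arrays lay close together and well above every untreated array. HES2, a transcriptional repressor of the HES family, changed by 3.01 ± 0.27, and its untreated arrays, the first included, lay between 5.20 and 5.37. The adhesion molecule CEACAM1 (2.84 ± 0.67), AKAP19, an anchor of protein kinase A (2.71 ± 0.26), CYP4F3, a fatty acid hydroxylase (2.69 ± 0.38), ELAPOR1 (2.62 ± 0.49), MYBPHL (2.55 ± 0.33) and KLHL30 (2.48 ± 0.26) were also among the 12 highest. MYBPHL and KLHL30 were each detected on 1 of the 3 untreated arrays. Of the 12 highest, 9 are under 30 kb long in the genome and 1, AKAP19, is over 100 kb.

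The genes that fell most included regulators of DNA replication and several very long genes. E2F2, an activator of S-phase genes, had 7.58, 6.96 and 6.76 at 10 nM and 10.94, 10.27 and 10.38 in untreated cells, a change of -3.43 ± 0.32 (adjusted p = 6.5e-08). DTL, the receptor of the ubiquitin ligase that destroys CDT1 and p21 in S phase, had 7.88, 6.91 and 6.82 at 10 nM and 10.30, 9.97 and 10.12 untreated (-2.93 ± 0.37). CDT1, which loads the MCM helicase, had 8.78, 7.77 and 7.78 at 10 nM and 11.58, 10.53 and 10.54 untreated (-2.78 ± 0.41). In these genes the first 10 nM array was the highest of its group, and no 10 nM array reached an untreated one. DOCK1, an activator of the GTPase Rac, had 4.87, 4.96 and 5.28 at 10 nM and 7.55, 7.92 and 7.81 untreated (-2.72 ± 0.32, length 547 kb). IMMP2L, a mitochondrial inner membrane peptidase, changed by -2.6 ± 0.33 (900 kb) and SYT1, a calcium sensor of secretory vesicles, by -2.81 ± 0.36 (588 kb). CHLSN (-3.12 ± 0.49), TIGD5 (-3.13 ± 0.57), cyclin E2 (CCNE2, -2.87 ± 0.44), the inositol phosphatase IMPA2 (-2.80 ± 0.21), the folate carrier SLC19A1 (-2.59 ± 0.55, detected on 2 of the 10 nM arrays) and the rhomboid protease homologue RHBDL3 (-2.53 ± 0.30) completed the 12 lowest, of which 4 are over 100 kb. The 24 genes were chosen among those called with and without the first untreated array and with groups that did not overlap. With slide as a random block CCN2 alone of them was not called (adjusted p = 0.069).

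**Figure D1:**
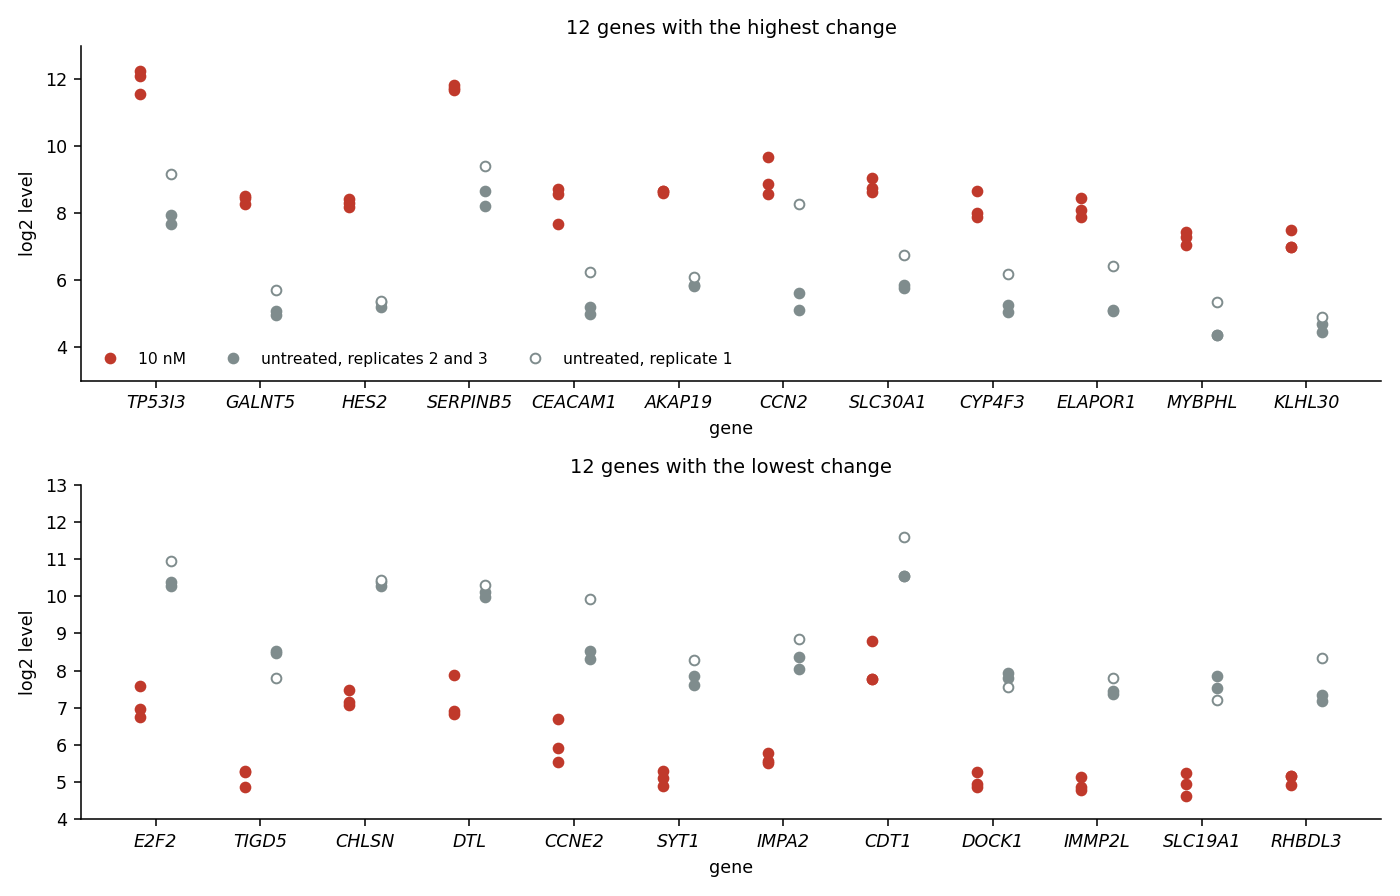
Log2 level on each array of the 12 genes with the highest change (top) and the 12 with the lowest (bottom). Red points are the 10 nM arrays and grey points the untreated arrays, the first of them open. The genes were chosen among those whose groups do not overlap. In CCN2 the first untreated array (8.28) lies nearest to the 10 nM arrays.

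Across the genome, the change followed the length of the gene. Lengths came from RefSeq's gene models of GRCh38.p14, from start to end with introns, for 10879 of 10919 named genes (99.6%). The length classes were chosen after the values were seen. The 2459 genes under 10 kb had a median change of 0.15, the 3219 of 10 to 30 kb 0.16, the 3415 of 30 to 100 kb -0.02, the 1490 of 100 to 300 kb -0.34 and the 296 over 300 kb -0.66. Genes called lower made up 6.34% of the shortest class, then 8.33%, 15.8%, 36.6% and 57.1% of the longest. Genes called higher made up 23.9%, 20.3%, 11.4%, 3.42% and 2.70%. In the longest class 248 of 296 genes had a change below 0. In 194 genes of that class (65.5%, against 22.6% of all features) every 10 nM array was below every untreated array, and in 19 (6.42%, against 24.8%) every one was above. Across genes, length and change had a Spearman rho of -0.36; genes on 1 array set are not independent replicates, and no p is given.

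The medians by length were the same without the first untreated array to within 0.01, from 0.14 in the shortest class to -0.66 in the longest. With slide as a random block the share called lower was 3.29% in the shortest class and 40.9% in the longest. Long genes also had lower levels: the median log2 level of a gene in untreated cells was 7.59 in the shortest class and 6.28 in the longest. In genes split into 3 equal groups by level, those with the highest level over all 30 arrays had a median change of 0.16 under 10 kb and -1.23 over 300 kb (25 genes). In the middle group it was 0.28 and -1.03 (103 genes over 300 kb), and in the lowest 0.08 and -0.43 (168 genes). The longest genes thus lay below the shortest in each group, by least where levels were lowest.

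On single arrays, the level of each gene was set against its mean in untreated cells of the same genotype, and the median of the 1786 genes over 100 kb was compared with that of the 2459 under 10 kb. The long genes lay below the short ones by a log2 difference of -0.61, -0.56 and -0.47 on the 10 nM arrays, against 0.02, -0.05 and 0.04 on the untreated arrays. The groups did not overlap, with a mean of -0.55 ± 0.07 at 10 nM and 0.00 ± 0.05 untreated (SD, n = 3 each; exact permutation test, two-sided p = 0.1, the smallest that 3 against 3 arrays allow). An untreated mean near 0 follows from setting each array against the untreated mean. The length classes were chosen after the values were seen, so the test is not independent of them. The p53KO cells at 10 nM had -0.55, -0.62 and -0.53, and their untreated arrays 0.01, 0.00 and -0.02. By class, p53KO cells at 10 nM had medians of 0.18, 0.15, -0.01, -0.35 and -0.65 from shortest to longest. In WT cells the 1 nM arrays had 0.02, -0.17 and -0.01, and the 100 nM arrays -0.83, -1.13 and -1.29.

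**Figure D2:**
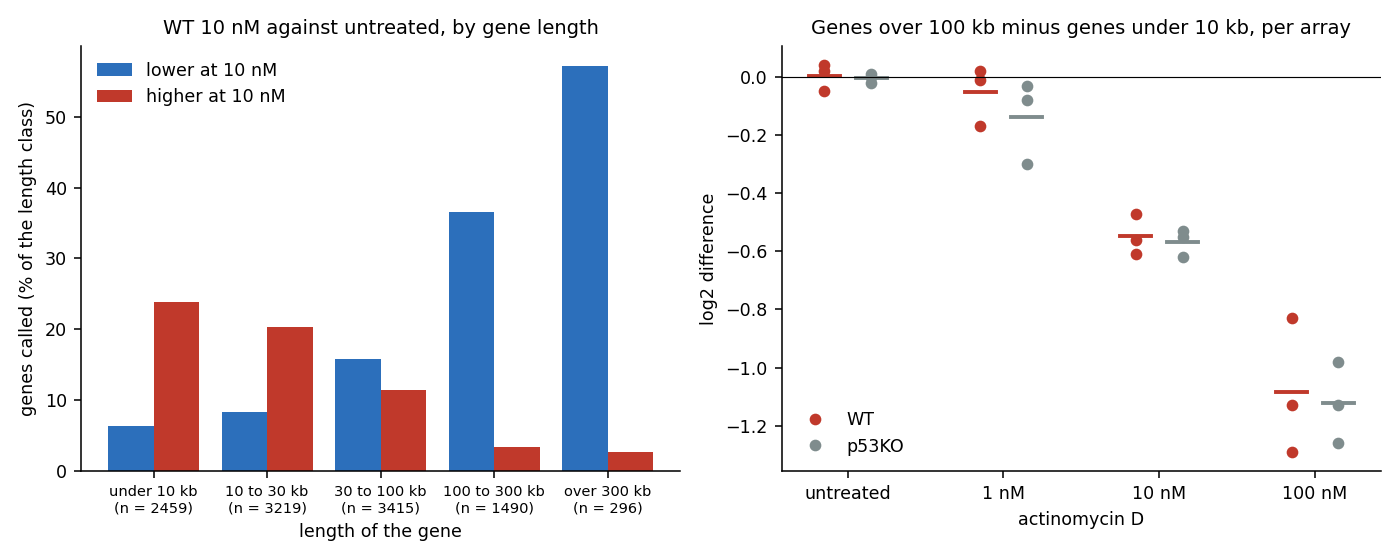
Left, share of genes of each length class called lower (blue) or higher (red) in WT cells at 10 nM against untreated cells, in percent. Right, log2 difference between the medians of genes over 100 kb and under 10 kb on each array, relative to untreated cells of the same genotype, with group means as lines; WT 10 nM arrays lie at -0.61 to -0.47 and WT untreated arrays at -0.05 to 0.04.

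Between 10 nM and 1 nM in WT cells, 5 of the 6 genes with the lowest differences were long, and the 6 with the highest were short (3.4 to 14.6 kb). At 10 nM, 206 features were higher than at 1 nM (1.79%) and 490 lower (4.25%), 6.04% in all. Same-numbered arrays of these groups deviated together (correlations of 0.33 to 0.54), and correlations between different numbers are not given. A fit on the arrays of these groups alone called 556 higher and 861 lower, and the same arrays with the replicate number as a block, which leaves 2 residual degrees of freedom, 1287 and 1288. All 1 nM arrays lay alone on slide 3, so that slide and the 1 nM dose cannot be told apart, and with slide as a random block 1 feature was called. Among genes over 300 kb, 38.2% were called lower than at 1 nM and 1.01% higher, and the median difference was -0.55; under 10 kb, 0.569% were lower, 3.94% higher and the median was 0.16. SMYD3, a lysine methyltransferase gene of 758 kb, had 5.82, 5.77 and 6.0 at 10 nM and 8.22, 8.47 and 8.47 in untreated cells. At 1 nM it had 8.15, 7.23 and 7.91. The second 1 nM array lay apart in some named genes, as in CHLSN (10.05, 7.46 and 9.64 at 1 nM, 7.08, 7.47 and 7.16 at 10 nM). Without that array 974 features were called between 10 and 1 nM. DOCK1 (-2.05 ± 0.32 against 1 nM), the kinase STK39 (-2.0 ± 0.32, 294 kb), DENND1A, an exchange factor for Rab proteins (-1.96 ± 0.24, 550 kb), SMYD3 (-1.90 ± 0.21), the olfactory receptor gene OR51B4 (-1.89 ± 0.32, 0.933 kb) and FAF1, a ubiquitin-binding factor (-1.85 ± 0.30, 523 kb), had the lowest differences. OR51B4 was the only short gene of those 6. The highest differences were in LINC00324 (2.08 ± 0.20), the nuclear receptor NR4A2 (1.76), MYBPHL (1.74), the interferon regulatory factor IRF7 (1.5), HES2 (1.45) and SSBP1 (5.30 ± 1.31), a mitochondrial DNA-binding protein. SSBP1 had 11.72 to 11.79 at 10 nM and 4.11, 4.11 and 11.17 at 1 nM, so its difference came from 2 of the 1 nM arrays.

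Cell cycle genes fell together. Of 34 tested genes of G1/S, E2F and origin licensing, 27 fell and none rose (15.4% of all features were called lower), with a median change of -1.32 against 0.03 for all features. Of 39 genes of the replication fork and nucleotide synthesis, 30 fell and 0 rose (median -1.05). Of 48 genes of mitosis and G2/M, 31 fell and 0 rose (median -1.18), and of 26 genes of homologous recombination and checkpoints 16 fell and 0 rose (median -0.71). Without the first untreated array 27, 27, 30 and 14 of these fell. With slide as a random block 22, 25, 8 and 10 fell (8.51% of all features), and the 8 mitosis genes were all among the 31. The lists were chosen with results of these data known, so their direction is not independent evidence.

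The first 10 nM array had the smallest shift in each of these lists. Against the untreated mean, the median of the G1/S list was -0.97, -1.52 and -1.54 on the 10 nM arrays and 0.06, -0.01 and -0.03 on the untreated arrays. The mitosis list stood at -0.59, -1.45 and -1.43 at 10 nM and -0.22, 0.14 and 0.04 untreated. The groups did not overlap in either list. E2F1 had 5.49, 5.18 and 5.05 at 10 nM and 7.61, 7.39 and 7.36 untreated (-2.21 ± 0.23, adjusted p = 3.4e-07). MCM6, a subunit of the replicative helicase, changed by -2.19 ± 0.25, and E2F8, a repressor of the family, by -2.15 ± 0.30. At the fork, the histone chaperones ASF1B (-2.53 ± 0.38) and CHAF1A (-2.28 ± 0.32), the helicase factor GINS2 (-2.13 ± 0.34), the primase PRIM1 (-2.10 ± 0.30) and the polymerase delta subunit POLD3 (-1.30 ± 0.20) fell. In recombination, RAD54B (-1.88 ± 0.30), RAD54L (-1.89 ± 0.33), the helicase BLM (-1.88 ± 0.34) and the kinase CHEK1 (-1.19 ± 0.23) fell. BRCA1 changed by -2.05 ± 0.35 on the probe used and by -0.18 on its second probe.

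Among mitotic genes, BUB1B, a kinase of the spindle checkpoint, had 7.92, 7.25 and 7.11 at 10 nM and 9.26, 9.66 and 9.62 untreated (-2.09 ± 0.41, adjusted p = 0.00041). The spindle motor KIF11 changed by -2.0 ± 0.42, the spindle factor HMMR by -1.82 ± 0.38 and the phosphatases CDC25C and CDC25B by -1.40 ± 0.31 and -1.32 ± 0.21. The kinase PLK1 had 5.71, 5.28 and 5.56 at 10 nM and 6.58, 6.99 and 6.58 untreated (-1.20 ± 0.36, adjusted p = 0.013; 0.11 with slide as a random block). CCNB1, cyclin B1, had 8.86, 8.13 and 8.27 at 10 nM and 8.01, 9.35 and 9.25 untreated. Its groups overlapped through the first untreated array, and its change of -0.45 ± 0.44 was not called (adjusted p = 0.48; -0.88 and 0.16 without that array). CDK1 had 10.87, 9.88 and 9.88 at 10 nM and 10.81, 10.78 and 10.63 untreated (-0.53 ± 0.36, adjusted p = 0.28), and overlapped through the first 10 nM array. At 100 nM, 8 of the 48 mitosis genes were higher than at 10 nM and 10 lower, while 20 of the 34 G1/S genes were higher than at 10 nM and 4 lower (32.0% and 32.6% of all features), and E2F2 was 2.81 ± 0.32 above its 10 nM level.

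The promoters of the cell cycle lists, called members or not, held different letters. The 250 bases before each RefSeq start site (GRCh38.p14) were searched on both strands for 8947 tested genes. The letters TTTGAA, the core of the cell cycle homology region (CHR), which the DREAM complex binds, were found in 23 of 40 mitosis promoters, 57.5%, against 12.2% of all. E2F-type letters, TTTCCCGC, TTTGGCGC or TTTCGCGC, were found in 14 of 28 G1/S promoters, 50%, and 10 of 35 fork promoters, 28.6%, against 4.84% of all. The E2F-type letters stood in 7.5% of the mitosis promoters and the CHR letters in 7.14% of the G1/S promoters. Among all genes, the CHR letters were in 17.3% of those called lower and 9.66% of those called higher. A match is a description of the letters and does not show binding. The promoters of 5 genes described above that hold a match follow, with the match in capitals, to show where the letters lie: BUB1B (chr15:40160819-40161068, plus strand), KIF11 (chr10:92592880-92593129, plus strand), which holds the reverse complement, and HMMR (chr5:163460382-163460631, plus strand), with a repeat of the CHR letters, then E2F2 (chr1:23531234-23531483, minus strand) and E2F1 (chr20:33686386-33686635, minus strand), each read 5′ to 3′ towards the gene. The match ends 17 bases before the start site in BUB1B, 22 in KIF11, 34 in E2F2 and 12 in E2F1; in HMMR the matches end 22 and 16 bases before it.
BUB1B: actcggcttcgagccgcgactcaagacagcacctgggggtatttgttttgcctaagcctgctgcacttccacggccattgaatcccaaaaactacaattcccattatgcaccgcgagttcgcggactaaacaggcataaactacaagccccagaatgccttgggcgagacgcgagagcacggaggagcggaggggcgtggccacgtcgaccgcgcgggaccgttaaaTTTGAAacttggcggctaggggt
KIF11: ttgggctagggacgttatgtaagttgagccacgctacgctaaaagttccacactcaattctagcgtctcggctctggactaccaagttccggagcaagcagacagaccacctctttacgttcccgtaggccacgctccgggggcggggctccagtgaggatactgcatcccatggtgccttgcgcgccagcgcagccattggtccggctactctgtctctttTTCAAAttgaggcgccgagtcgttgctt
HMMR: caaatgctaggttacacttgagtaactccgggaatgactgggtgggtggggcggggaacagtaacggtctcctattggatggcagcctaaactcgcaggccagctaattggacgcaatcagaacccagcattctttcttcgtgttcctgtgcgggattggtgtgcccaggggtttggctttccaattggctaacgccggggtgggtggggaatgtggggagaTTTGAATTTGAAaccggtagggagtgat
E2F2: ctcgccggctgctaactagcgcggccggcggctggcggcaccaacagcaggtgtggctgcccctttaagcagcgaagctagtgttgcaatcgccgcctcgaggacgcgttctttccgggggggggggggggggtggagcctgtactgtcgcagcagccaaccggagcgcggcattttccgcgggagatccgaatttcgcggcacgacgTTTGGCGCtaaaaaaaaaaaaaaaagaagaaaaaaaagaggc
E2F1: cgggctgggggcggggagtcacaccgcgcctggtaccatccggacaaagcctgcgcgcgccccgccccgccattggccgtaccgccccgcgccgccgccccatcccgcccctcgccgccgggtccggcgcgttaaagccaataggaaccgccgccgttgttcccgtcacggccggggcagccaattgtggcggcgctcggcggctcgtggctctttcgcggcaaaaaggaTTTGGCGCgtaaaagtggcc

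**Figure D3:**
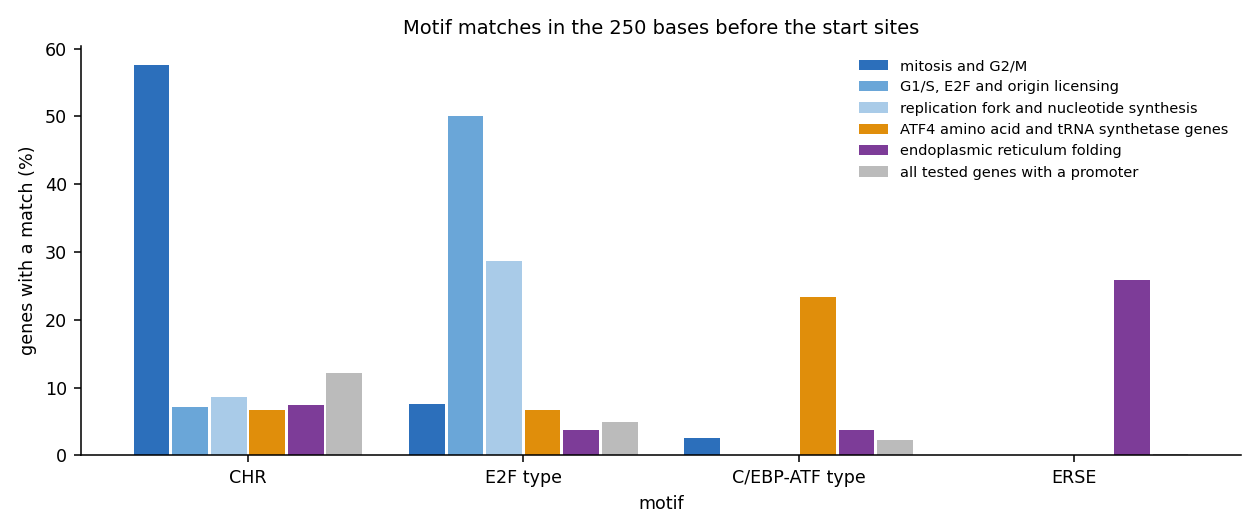
Share of genes (percent) with a match to each of 4 motifs in the 250 bases before a RefSeq start site, for 5 gene lists in colour and for all 8947 tested genes in grey. CHR matches stand at 57.5% in mitosis genes and 12.2% in all genes, and E2F-type matches at 50% in G1/S genes and 4.84% in all genes.

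p53 target genes rose, and the size of the rise depended on the first untreated array. Of 20 tested arrest and feedback genes, 13 rose and 0 fell (15.6% of all features were called higher), with a median change of 1.20. Without the first untreated array 14 rose and the median was 1.64, and with slide as a random block 5 rose. Of 18 apoptosis and death receptor genes 8 rose and 1 fell (12 and 0 without that array; 5 and 0 with slide as a random block), and of 21 repair and metabolism genes 11 rose and 1 fell (13 and 1; 8 and 1). Against the untreated mean, the median of the arrest list was 1.27, 1.15 and 1.11 on the 10 nM arrays and 1.01, -0.39 and -0.52 on the untreated arrays. The first untreated array thus stood close to the 10 nM arrays in this list, while in the replication fork list it stood at -0.04, with the other untreated arrays at 0.00 and 0.02.

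CDKN1A, which encodes the inhibitor p21, had 14.18, 14.14 and 14.09 at 10 nM and 13.91, 12.27 and 12.22 in untreated cells. The first untreated array lay near the 10 nM arrays and apart from the other untreated ones, and the change of 1.34 ± 0.71 was not called (adjusted p = 0.16; 1.89 and 0.068 without that array). Its second probe changed by -0.03. GDF15, a secreted stress cytokine, had 11.62, 12.06 and 11.91 at 10 nM and 12.70, 10.27 and 10.15 untreated, so the groups overlapped and the change was 0.83 ± 0.76 (adjusted p = 0.44; 1.66 and 0.12 without that array). MDM2, the ubiquitin ligase that restrains p53, had 7.48, 7.23 and 7.84 at 10 nM and 6.15, 4.50 and 4.86 untreated (2.35 ± 0.47, adjusted p = 0.00049). FAS, a death receptor, had 6.93, 6.93 and 6.98 at 10 nM and 5.92, 5.43 and 4.88 untreated (1.54 ± 0.30). BAX, a pore-forming BCL2 protein, had 6.84, 7.03 and 7.05 at 10 nM and 6.68, 6.54 and 6.59 untreated; the groups did not overlap, and the change of 0.37 ± 0.21 was not called (adjusted p = 0.18).

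Among the other p53 targets, the RNA-binding factor ZMAT3 (2.19 ± 0.50), the kinase PLK2 (1.72 ± 0.19), the 14-3-3 protein SFN (1.71 ± 0.28) and CDIP1 (1.20 ± 0.23) rose in the arrest list. TIGAR, a phosphatase that lowers glycolytic flux, had 9.95, 9.68 and 9.90 at 10 nM and 8.36, 7.44 and 7.62 untreated (2.03 ± 0.22, adjusted p = 3.4e-07). The growth factor PGF (2.03 ± 0.25), the AMP kinase subunit PRKAB1 (1.56 ± 0.26) and the peroxidase GPX1 (1.03 ± 0.19) rose with it. KITLG, the ligand of the receptor KIT, fell by 1.69 on the log2 scale (adjusted p = 0.00027), and its second probe by 0.69. In the apoptosis list EI24 (1.05 ± 0.16), the effector BAK1 (1.04 ± 0.18) and the BH3-only gene PMAIP1 (1.25 ± 0.27) rose. PMAIP1 was not called with slide as a random block (adjusted p = 0.066).

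The response to 10 nM differed between WT and p53KO cells in 49 features, 0.425% of those tested, 28 with a higher response in WT cells (0.243%) and 21 with a lower one (0.182%). Same-numbered arrays of the genotypes deviated together (correlations of 0.35 to 0.42 at 10 nM and 0.60 to 0.78 untreated). In the untreated groups the own number was highest for 3 of 3. Correlations between different numbers at 10 nM are not given, so whether the numbers pair those arrays was not tested. A fit on the arrays of these groups alone called 357 features, and the same arrays with the replicate number as a block, which leaves 4 residual degrees of freedom, 1375 (645 higher and 730 lower), all 49 among them. With slide as a fixed block 345 differed, without the 4 arrays in doubt (the first untreated and the third nutlin arrays of both genotypes) 300, and with each array scaled to its 75th percentile 60 were higher and 25 lower. KLHL30 had 7.16 ± 0.30 at 10 nM and 4.68 ± 0.22 untreated in WT cells, and 4.53 ± 0.09 and 4.48 ± 0.07 in p53KO cells (SD, n = 3 each), a difference of 2.42 ± 0.36 (SE, adjusted p = 0.0019). MYBPHL had 7.25 ± 0.19 and 4.70 ± 0.57 in WT cells, and 4.19 ± 0.02 and 4.18 ± 0.02 in p53KO cells (difference 2.54). KLHL30 and MYBPHL were each detected on 1 of the 3 WT untreated arrays, so their low levels lie near the detection limit. E2F2 had 7.10 ± 0.43 and 10.53 ± 0.36 in WT cells, and 9.05 ± 0.08 and 10.18 ± 0.24 in p53KO cells, so it was lower at 10 nM in both (difference -2.29 ± 0.45, adjusted p = 0.017). DTL, E2F1, E2F8, ORC1 and FBXO5 had differences of -2.39 to -1.49. None of these 5 was called without the first WT untreated array alone (differences of -2.31 to -1.41, adjusted p = 0.063 to 0.084). All 5 were called without the 4 arrays in doubt (adjusted p = 0.0067 to 0.033). SUGCT, a gene of 904 kb, was higher at 10 nM than untreated in WT cells (7.95 ± 0.15 and 6.21 ± 0.11) and lower in p53KO cells (4.97 ± 0.09 and 5.87 ± 0.05). With all arrays, 0 of 20 arrest, 0 of 18 apoptosis and 3 of 21 repair genes were called (0.425% of all features). Their median differences were 1.16, 0.51 and 0.66, against 0.01 for all features. In p53KO cells TP53I3 changed by 1.23, PMAIP1 by 1.01, MDM2 by 0.25 and FAS by 0.06, and none of them was called in this comparison.

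By length class, the median difference between the responses of WT and p53KO cells lay between 0.00 and 0.02.

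Genes of amino acid supply and transfer RNA charging, targets of the stress factor ATF4, fell. Of 36 tested, 19 fell (52.8%, against 15.4% of all features) and 1 rose (2.78%, against 15.6%), with a median of -0.81; without the first untreated array 16 fell and 3 rose (median -0.39), and with slide as a random block 19 and 1. The list's median against the untreated mean was -0.78, -0.79 and -0.78 on the 10 nM arrays and 0.47, -0.14 and -0.37 on the untreated arrays. AARS1, alanyl-tRNA synthetase, had 10.13, 10.31 and 10.31 at 10 nM and 11.97, 12.12 and 11.77 untreated (-1.70 ± 0.19, adjusted p = 8.2e-07), and -1.70 without the first untreated array. SLC7A1, a transporter of cationic amino acids, had 8.65, 8.77 and 8.88 at 10 nM and 11.21, 10.35 and 10.07 untreated (-1.78 ± 0.22; -1.45 without that array). The serine synthesis enzyme PHGDH (-1.6 ± 0.19), the mitochondrial enzyme PCK2 (-1.69 ± 0.20) and CARS1, cysteinyl-tRNA synthetase (-1.25 ± 0.16), fell too. DDIT3, the stress factor CHOP, had 7.79, 7.74 and 7.76 at 10 nM and 10.48, 7.92 and 7.31 untreated, and its change was -0.81 ± 0.49 (adjusted p = 0.22) with all arrays and 0.15 (adjusted p = 0.80) without the first untreated array, neither called.

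Genes of protein folding in the endoplasmic reticulum fell in 9 of 28 cases (32.1%, against 15.4% of all features) and rose in 1, with a median of -0.27. Without the first untreated array 6 fell and 2 rose (15.1% and 14.1% of all features), with a median of -0.12. HSPA5, the chaperone BiP, had 7.39, 7.67 and 7.70 at 10 nM and 9.34, 9.21 and 9.0 untreated (-1.6 ± 0.22, adjusted p = 1.1e-05). The disulfide isomerases PDIA4 (-0.92 ± 0.14) and P4HB (-0.53 ± 0.12), SDF2L1 (-0.72 ± 0.14) and HERPUD1, a factor of protein disposal (-1.37 ± 0.29), fell with it. HERPUD1 had 10.29 on the first untreated array and 8.96 and 8.88 on the others, and its change was -0.92 without the first. Of 29 cytosolic chaperone genes 3 rose and 0 fell, and without the first untreated array 0 rose and 1 fell, so no direction held for that list.

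The promoters of the ATF4 and folding lists were searched for elements known from those pathways. TGATGNAA, the C/EBP-ATF type element, was found in 7 of 30 ATF4-list promoters, 23.3%, against 2.27% of all. The element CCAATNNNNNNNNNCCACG, known as the endoplasmic reticulum stress element, was found in 7 of 27 folding promoters, 25.9%, against 0.168% of all, and in 0 promoters of the ATF4 list. Shown with matches in capitals are AARS1 (chr16:70289507-70289756, minus strand) and GARS1 (chr7:30594628-30594877, plus strand), both holding the reverse complement, and HSPA5 (chr9:125241344-125241593, minus strand). GARS1, glycyl-tRNA synthetase, was named after its values were seen, for its match, and had 10.92, 11.11 and 11.07 at 10 nM and 12.37, 11.76 and 11.67 untreated (-0.90 ± 0.15, adjusted p = 7.1e-05).
AARS1: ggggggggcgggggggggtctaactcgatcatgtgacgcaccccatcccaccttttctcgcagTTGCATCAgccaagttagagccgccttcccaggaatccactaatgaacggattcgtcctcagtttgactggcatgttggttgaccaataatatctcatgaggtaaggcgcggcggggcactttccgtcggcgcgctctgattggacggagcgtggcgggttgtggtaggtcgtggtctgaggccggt
GARS1: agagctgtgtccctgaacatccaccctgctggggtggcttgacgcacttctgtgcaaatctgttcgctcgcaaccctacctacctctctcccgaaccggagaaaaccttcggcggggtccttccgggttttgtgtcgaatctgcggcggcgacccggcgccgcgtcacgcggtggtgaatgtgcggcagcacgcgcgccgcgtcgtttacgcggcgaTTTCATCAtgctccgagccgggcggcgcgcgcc
HSPA5: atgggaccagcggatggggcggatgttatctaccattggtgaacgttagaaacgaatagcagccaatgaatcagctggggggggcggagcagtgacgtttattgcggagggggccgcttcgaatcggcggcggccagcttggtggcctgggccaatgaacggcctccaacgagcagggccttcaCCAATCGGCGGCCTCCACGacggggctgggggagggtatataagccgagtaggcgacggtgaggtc

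Of 49 genes of RNA polymerase I and ribosome biogenesis, 18 rose (36.7%, against 15.6% of all features) and 3 fell (6.12%, against 15.4%), with a median of 0.36. Without the first untreated array 13 rose and 2 fell, and with slide as a random block 10 and 1. BYSL, a factor of the small subunit, had 10.56, 10.42 and 10.48 at 10 nM and 9.64, 9.80 and 9.58 untreated (0.81 ± 0.14, adjusted p = 8.4e-05). RCL1, an endonuclease of ribosomal RNA processing (0.72 ± 0.13), TAF1C, a subunit of the polymerase I factor SL1 (0.70 ± 0.12; second probe 0.28), and the methyltransferase FTSJ3 (0.77 ± 0.15) rose. The helicase DDX10, a gene of 276 kb, fell by 0.90 on the log2 scale. At 100 nM, 33 of the 49 were lower than at 10 nM and 4 higher, against 32.6% and 32.0% of all features. RCL1 was among the lower ones, by a log2 difference of -4.37.

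Of 59 cytosolic ribosomal protein genes 6 rose and 4 fell, 16.9% called against 30.9% of all features, with a median of 0.01. Without the first untreated array 3 rose and 4 fell, against 14.1% and 15.1% of all features. RPL34 (1.35 ± 0.14) and RPL32 (1.09 ± 0.18) rose on the probe used, but their other probes changed by 0.09 and 0.20, and these genes have near-identical copies in the genome. RPL13A (-0.69 ± 0.17), RPL22 (-0.66 ± 0.16) and RPL10A (-0.57 ± 0.15) fell, RPL22 and RPL10A not with slide as a random block (adjusted p = 0.051 and 0.053). Of 70 genes of RNA polymerase II, Mediator and elongation, 10 rose and 6 fell, 14.3% and 8.57% against 15.6% and 15.4% of all features, and 5 and 1 with slide as a random block. Those with the smallest p included the Mediator subunit MED20 (1.15 ± 0.18), TAF7 (0.88 ± 0.18), the elongation factor ELL2 (0.95 ± 0.22) and cyclin K (CCNK, 0.77 ± 0.16). Of 60 splicing factor genes 5 rose (8.33%) and 11 fell (18.3%), against 15.6% and 15.4% of all features, and 2 and 3 with slide as a random block. HNRNPD, an AU-rich RNA binding protein, had 10.87, 11.10 and 11.49 at 10 nM and 12.21, 12.40 and 12.40 untreated (-1.18 ± 0.19). HNRNPA1 (-0.66 ± 0.15), HNRNPA2B1 (-0.67 ± 0.16) and SRSF7 (-0.73 ± 0.20; adjusted p = 0.14 with slide as a random block) fell with it.

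Of 23 metallothionein and zinc transporter genes, 7 rose (30.4%, against 15.6% of all features) and 5 fell (21.7%, against 15.4%), and 4 and 1 with slide as a random block. SLC30A1, which exports zinc across the plasma membrane, had 9.07, 8.65 and 8.77 at 10 nM and 6.75, 5.77 and 5.85 untreated (2.71 ± 0.22, adjusted p = 7.7e-09). MT1X, a metallothionein, had 10.83, 11.19 and 11.47 at 10 nM and 8.56, 9.25 and 9.21 untreated (2.15 ± 0.19), and MT2A changed by 0.80 ± 0.13. MT1E was not detected on any untreated array and was at least 2.01-fold higher at 10 nM (adjusted p = 2.2e-05). Metallothionein genes are near-identical, and probes may share signal. SLC39A11, a zinc importer gene of 447 kb, had 5.98, 6.64 and 6.72 at 10 nM and 7.90, 7.98 and 8.09 untreated (-1.55 ± 0.22). MT1X stood at 11.35 ± 0.13 at 1 nM and 12.30 ± 0.07 at 100 nM (SD, n = 3 each).

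**Figure D4:**
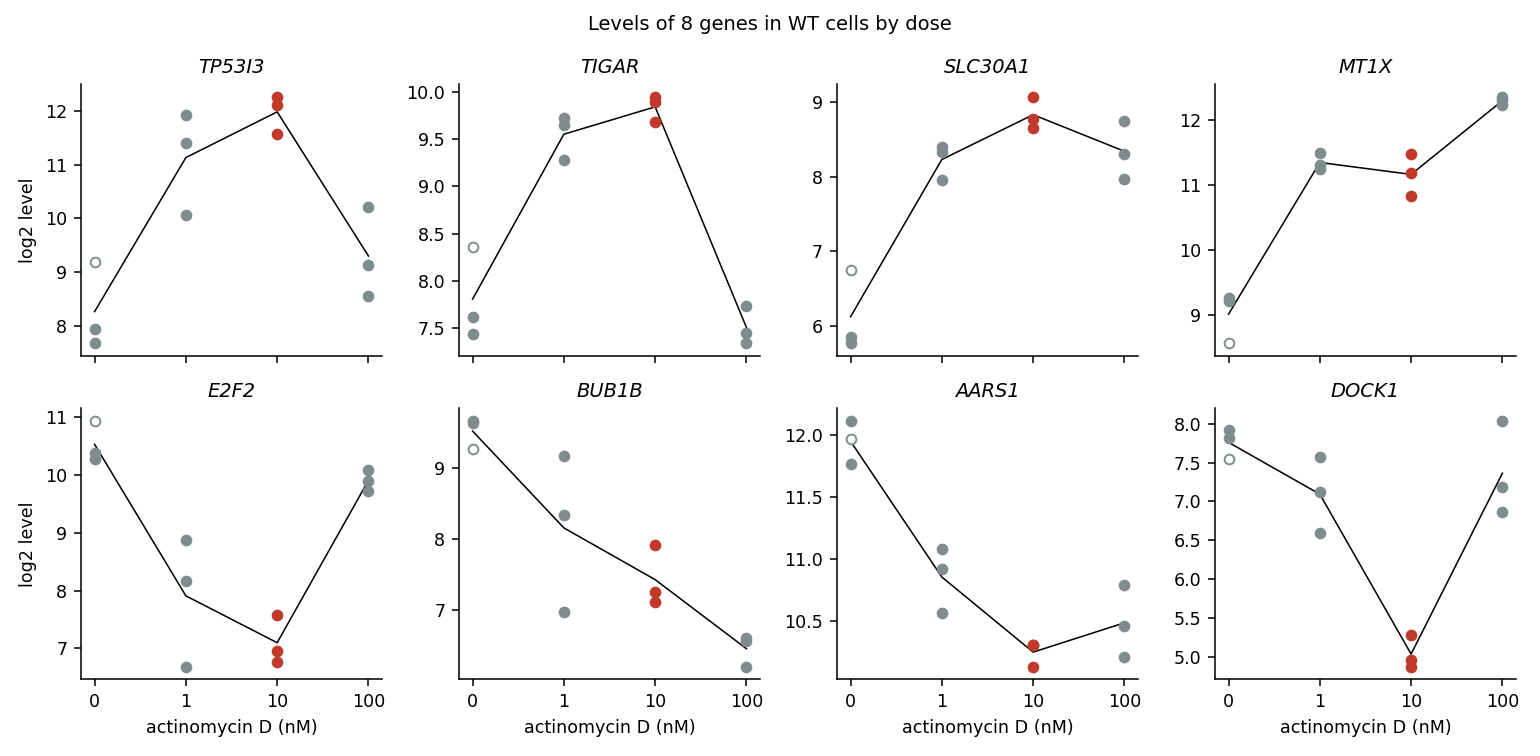
Log2 level on each array of 8 genes in WT cells at 0, 1, 10 and 100 nM actinomycin D, with 10 nM in red, the first untreated array open and lines through the group means. DOCK1 has its lowest mean at 10 nM (5.04, against 7.76 untreated), and TP53I3 and TIGAR their highest (11.98 and 9.84, against 8.27 and 7.81 untreated).

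Immediate early genes gave no stable balance of calls. Of 29 tested, 5 rose and 2 fell, 17.2% and 6.90% against 15.6% and 15.4% of all features, with 7 and 2 without the first untreated array and 1 and 4 with slide as a random block, and with list medians on single arrays of 0.24, -0.14 and 0.12 at 10 nM and 0.49, -0.22 and -0.30 untreated. FOS had 6.78, 6.33 and 7.85 at 10 nM and 9.66, 8.28 and 7.62 untreated; the groups overlapped and the change of -1.53 ± 0.70 was not called (adjusted p = 0.098). It was -0.96 without the first untreated array (adjusted p = 0.37), and -2.51 and called with slide as a random block (adjusted p = 0.038). EGR1, a zinc finger factor, had 8.26, 8.03 and 9.24 at 10 nM and 10.55, 10.15 and 9.49 untreated (-1.55 ± 0.37, adjusted p = 0.0023). ID1, an inhibitor of differentiation factors, had 10.16, 10.20 and 10.24 at 10 nM and 11.98, 11.88 and 11.48 untreated (-1.58 ± 0.19). CCN2, a secreted matrix protein and YAP target, had 9.67, 8.59 and 8.89 at 10 nM and 8.28, 5.62 and 5.12 untreated (2.71 ± 0.70), and CCN1 changed by 1.74 ± 0.49 (adjusted p = 0.11 with slide as a random block). IER5 rose by 1.01 ± 0.21. MYC had 11.90, 11.78 and 12.13 at 10 nM and 11.26, 11.58 and 11.52 untreated (0.48 ± 0.21, adjusted p = 0.079).

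Of 19 MAPK feedback genes 4 rose and 4 fell, 42.1% called against 30.9% of all features: SPRY1, a Sprouty inhibitor, rose by 1.99 ± 0.38 and the factor ETV4 by 0.84 ± 0.23, while the factor ETV5 (-0.94 ± 0.14), the receptor inhibitor ERRFI1 (-0.95 ± 0.20) and SPRED2 (-0.72 ± 0.18) fell. Without the first untreated array 7 of the 19 rose and 4 fell, against 14.1% and 15.1% of all features. ETV4 changed by 0.52 without the first untreated array and was not called (adjusted p = 0.067). Of 19 NF-kB and chemokine genes 0 were called with all arrays in limma (2 higher and 1 lower at an unadjusted p under 0.05), and 2 rose without the first untreated array. On that array the list's median lay 0.55 above the untreated mean, against 0.07, 0.03 and 0.08 at 10 nM.

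Of 39 epithelial genes 11 rose (28.2%, against 15.6% of all features) and 2 fell (5.13%, against 15.4%). Beside GALNT5 and SERPINB5, the receptor GPRC5A (1.43 ± 0.27), the mucin MUC1 (1.03 ± 0.20) and desmoplakin (DSP, 0.76 ± 0.14) rose. Of the 7 colon markers 2 rose, CDX2, an intestinal transcription factor (0.82 ± 0.21), and the keratin KRT8 (0.63 ± 0.21; adjusted p = 0.075 with slide as a random block). Of 34 interferon and antigen presentation genes 9 rose (26.5%) and 2 fell (5.88%), and 6 and 2 with slide as a random block. TAP1, a peptide transporter, had 11.92, 12.19 and 11.77 at 10 nM and 10.49, 9.90 and 9.89 untreated (1.86 ± 0.38), and ISG15 rose by 1.42 ± 0.25 and OASL by 1.29 ± 0.24 (second probe 0.56). OAS3 (-0.93 ± 0.16) and the helicase DDX60 (-0.94 ± 0.17) fell. Of 22 BCL2 family and IAP genes 6 rose (27.3%) and 5 fell (22.7%), and 2 and 3 with slide as a random block: MCL1, a survival factor, changed by 1.34 ± 0.26 (second probe 0.30), BCL2L12 by -1.44 ± 0.28 and BIRC6, a gene of 262 kb, by -1.03 ± 0.21.

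Lipid synthesis genes fell in 10 of 29 cases (34.5%, against 15.4% of all features) and rose in 1. INSIG1, a sterol sensor, had 7.25, 7.30 and 7.46 at 10 nM and 9.34, 8.72 and 9.16 untreated (-1.74 ± 0.33, adjusted p = 0.00028). FADS1 (-1.21 ± 0.23), the regulator SREBF1 (-1.02 ± 0.22) and fatty acid synthase (FASN, -0.91 ± 0.20) fell. ACACA, a gene of 322 kb, changed by -1.73 ± 0.24 on the probe used and by 0.08 on its second probe. Among 26 Wnt genes 6 rose (23.1%) and 5 fell (19.2%), against 15.6% and 15.4% of all features. Without the first untreated array 4 rose and 7 fell, against 14.1% and 15.1% of all features, so no direction held for that list. SP5 was not detected on any untreated array and was at least 2.53-fold higher at 10 nM (adjusted p = 1.6e-06), and the Wnt inhibitor DKK1 rose by 1.17 ± 0.23. TCF7L2 (-1.71 ± 0.37, 217 kb) and the adhesion receptor CD44 (-1.11 ± 0.22, second probe -0.24) fell. TCF3 (-1.29 ± 0.26), counted among the 5, is the gene of the E2A proteins and not a relative of TCF7L2.

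**Figure D5:**
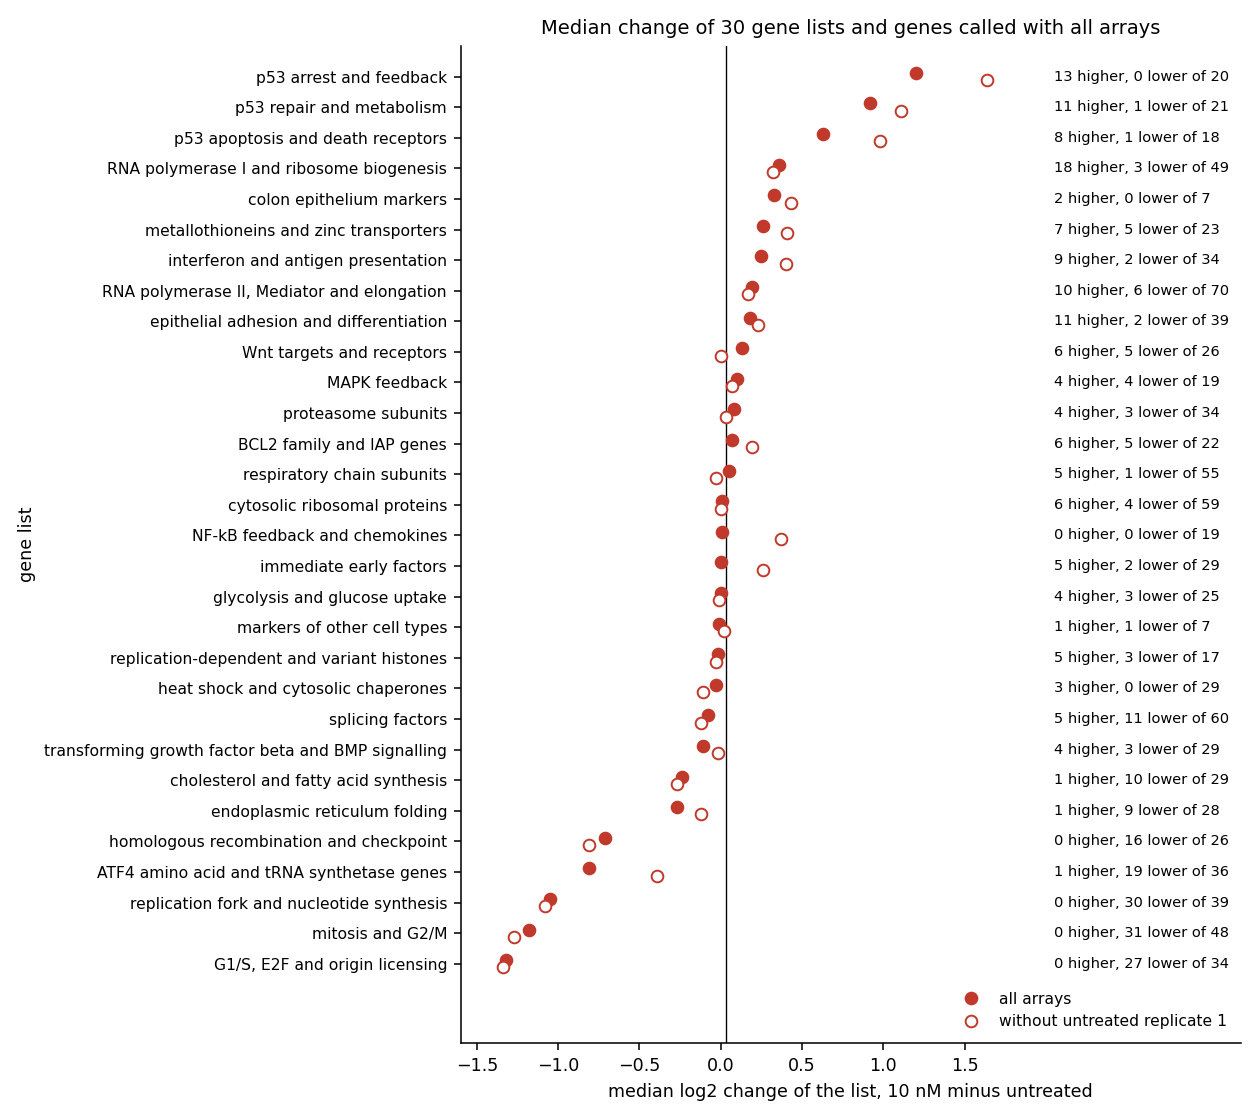
Median log2 change of each of 30 gene lists at 10 nM minus untreated, with all arrays (filled) and without the first untreated array (open); the line marks the median of all features, 0.03. The number of genes called higher and lower is printed at the right, and the ATF4 list moves most on leaving out that array among lists with a median below 0 (-0.81 with all arrays, -0.39 without).

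At 100 nM, 3688 features were higher than at 10 nM (32.0%) and 3753 lower (32.6%), 64.6% in all; with each array scaled to its 75th percentile, which moved the median of all features by 0.49, 5866 were higher and 2439 lower. Of the 20 arrest and feedback genes, 2 were higher at 100 nM than at 10 nM and 13 lower. MDM2 was lower at 100 nM than at 10 nM by a log2 difference of -2.54 ± 0.47, FAS by -2.17 ± 0.30 and TIGAR by -2.33 ± 0.22. The long genes DENND1A (3.04), SMYD3 (3.37) and IMMP2L (3.06) were higher at 100 nM than at 10 nM on this relative scale. Other long genes were lower, among them MBP (-2.68) and TCF7L2 (-1.75). The median difference was 0.24 among genes over 300 kb, -0.32 among those of 100 to 300 kb and 0.35 among those under 10 kb.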

How the data were processed

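Per the file headers, the authors deposited a raw table of average bead intensity, each with its detection p-value; BeadStudio is named in the submitters' processing notes, with no version in the sources used here. A processed intensity table, also deposited by the authors, served as an alternative. The tables hold 26 array columns of other samples, not used. Of 22177 probes, 21101 had a gene symbol. Intensities were processed with limma 3.58.1 in R 4.3.3 (neqc, offset 16, log2). Probes with a detection p under 0.01 on all 3 arrays of a group were kept (12896), and the brightest stood for its gene. One model held all 30 arrays (20 residual degrees of freedom). A fold bound sets the dim group at the lowest detected signal. The fit was also run on simulated data with known changes, and its outcome is not given here.

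Named genes were the 12 highest and 12 lowest called with and without the first untreated array in groups that did not overlap, up to 5 called members per list by p, 12 fixed genes, and 6 each way in the 10 against 1 nM and genotype comparisons. The members and lists were chosen with earlier results of these data known. WT and p53KO arrays of a number deviated together (correlations of 0.35 to 0.78), as did 10 and 1 nM arrays (0.33 to 0.54). The pairing comes from the numbers in the titles. Of 469 other probes of called genes, 402 (85.7%) had the same sign. The number of arrays limits the precision.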

Additional observations from a re-analysis of the deposited data

Results flagged for a closer look

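The response to 10 nM actinomycin D differed between WT and p53KO cells, by the interaction term of limma, in 15 of the named genes. The difference, WT response minus p53KO response on the log2 scale, was 2.98 for CYP4F3, 2.64 for SUGCT, 2.54 for MYBPHL, 2.42 for KLHL30, 2.19 for SMTNL2, 2.18 for AKAP19, 1.92 for PGF and 1.66 for TIGAR. It was -2.39 for DTL, -2.29 for E2F2, -2.28 for FBXO5, -1.98 for ORC1, -1.83 for E2F8, -1.74 for C6orf141 and -1.49 for E2F1. C6orf141 had 6.30 ± 0.16 at 10 nM and 6.31 ± 0.65 untreated in WT cells, and 7.99 ± 0.28 and 6.27 ± 0.52 in p53KO cells (SD, n = 3 each). SMTNL2 had 6.68 ± 0.21 and 4.75 ± 0.25 in WT cells, and 4.53 ± 0.07 and 4.79 ± 0.25 in p53KO cells. All 15 were also called with the replicate number as a block and with slide as a fixed or a random block. Without the 4 arrays in doubt all 15 were called, and without the first WT untreated array alone 10 of the 15.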

How the results depend on the processing

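Of the 3563 calls of 10 nM against untreated WT cells, slide as a random block left a count of 1959, and 1282 without the first untreated array as well. Leaving out 1 array gave 2770 to 3362 calls, the replicate block 3320, and the other alternatives 2676 to 4585. Same-numbered arrays of these groups did not deviate together (correlations of 0.02 to 0.15), so the numbers do not pair them, and the block moved this count by less than 1.5 times.

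The genotype difference, 49 calls, was 85 with 75th percentile scaling, 111 in the authors' processed table, 21 with probes detected on all arrays, 357 with the arrays of the groups compared only, 300 without the 4 arrays in doubt, 146 and 345 with slide as a random and a fixed block, 1375 with the replicate block on those same arrays and 20 to 75 on leaving out 1 array. The 696 calls of 10 against 1 nM became 1417 with the arrays of the groups compared only, and 2575 with the replicate block on those same arrays. They became 1691 without the 4 arrays in doubt and 1 with slide as a random block. Leaving out 1 array gave 208 to 974 calls. There were 208, 375 and 494 without 10 nM replicates 1, 2 and 3, and 221, 974 and 242 without 1 nM replicates 1, 2 and 3. The 7441 calls of 100 against 10 nM were 6799 to 7183 on leaving out 1 array, and 7101 with the replicate block.

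With slide as a random block the number of calls moved by over 1.5 times in 18 of the 30 lists. No named gene changed sign while called. The median of the BCL2 and IAP list was -0.05 with slide as a random block, against 0.07. The difference in median change between genes over 300 kb and under 10 kb, -0.81, stayed below 0 in each setting, from -1.0 with probes detected on all arrays to -0.08 with no detection filter, where undetected probes enter. These length settings were added after the data were seen. The cause of these shifts was not tested.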

Other observations

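Of 25 glycolysis and glucose uptake genes 4 rose and 3 fell in WT cells at 10 nM, 28.0% called against 30.9% of all features. The glucose transporter SLC2A3 had 7.84, 7.54 and 7.29 at 10 nM and 4.79, 5.55 and 5.22 in untreated cells (2.37 ± 0.45, SE, adjusted p = 0.00034, limma). SLC2A1, the main glucose transporter of many cell lines, had 8.20, 8.43 and 8.68 at 10 nM and 8.04, 6.50 and 6.52 untreated (1.42 ± 0.31; 1.93 without the first untreated array). The phosphofructokinases PFKL (-0.93 ± 0.21; adjusted p = 0.059 with slide as a random block) and PFKP (-0.73 ± 0.18) fell, and the regulatory enzyme PFKFB2 rose (0.71 ± 0.14; other probes 1.33 and 0.19). Of 55 respiratory chain genes 5 rose and 1 fell (10.9% called), and of 34 proteasome genes 4 rose and 3 fell (20.6% called), with medians of 0.05 and 0.08. Without the first untreated array 3 respiratory chain genes rose and 3 fell, and 1 proteasome gene rose and 2 fell. Of all features, 14.1% rose and 15.1% fell in that fit.

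Of 17 histone genes 5 rose and 3 fell (47.1% called, against 30.9% of all features). With slide as a random block 2 rose and 1 fell, against 8.49% and 8.51% of all features. H2BC5 had 8.78, 9.78 and 9.78 at 10 nM and 8.07, 7.08 and 7.34 untreated (1.95 ± 0.48, adjusted p = 0.0033; 0.087 with slide as a random block), and H4C14 rose by 1.39 ± 0.27. SLBP, which binds the stem-loop of replication-dependent histone messages, fell by 0.88 on the log2 scale and H2AZ1 by 0.63 (adjusted p = 0.053 with slide as a random block). Histone genes are near-identical, and probes may share signal. In the transforming growth factor beta list 4 of 29 genes rose and 3 fell (24.1% called, against 30.9% of all features). SMAD7, an inhibitor of the pathway, had 6.82, 6.50 and 6.20 at 10 nM and 5.50, 4.82 and 4.53 untreated (1.56 ± 0.29), and TGFB3 rose by 0.82 ± 0.14. SKIL and FST were not detected on any untreated array and were at least 1.53-fold and 1.13-fold higher at 10 nM (adjusted p = 0.0011 and 0.0024).

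Of the markers of other cell types, MBP, a gene of 155 kb, had 8.01, 8.62 and 8.68 at 10 nM and 10.11, 9.44 and 9.65 untreated, and APOA1 had 5.62, 5.50 and 5.51 at 10 nM and 4.49, 4.84 and 4.66 untreated. Features not detected on any untreated array but on all 3 arrays at 10 nM, and called higher, numbered 75, and the reverse was also found in 75.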
